A study of Homo sapiens and Mus musculus with 19 samples.

Results

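The 35 genes described here encode subunits of the ionotropic and metabotropic glutamate receptors (23 genes) and of the GABA-A receptors (12 genes). The ionotropic glutamate receptors and the GABA-A receptors carry most fast excitation and inhibition in the brain, and the metabotropic ones modulate it through G proteins. They were taken by name from the autosomal genes of these families, with earlier results of these data known. They are 35 of 19126 autosomal protein-coding genes, and their spans with 2000 bp upstream hold 5512 of the 2211146 autosomal CCGG sites in the tables. The names cover 7 NMDA receptor genes, 3 AMPA receptor genes, 5 kainate receptor genes, 1 delta receptor gene, 7 metabotropic glutamate receptor genes and, among GABA-A receptor genes, 4 alpha genes, 2 beta genes, 4 gamma, delta and pi genes and 2 rho genes.

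The human part of the study holds 14 libraries. They are 2 libraries of 1000 HepG2 cells, 2 libraries of 1000 H1ES cells, 5 single HepG2 cells and 5 single H1ES cells. HepG2 is a line from a hepatocellular carcinoma and H1ES is a human embryonic stem cell line. No treatment is named for either, each stands for its kind as 1 line, and neither is a neuron. The assay marks the state of a CCGG site with a sequence tag. HpaII cuts the site when its CpG is unmethylated, and MspI cuts it in any of the 3 states. Each tag is counted as unmethylated, 5-methylcytosine (5mC) or 5-hydroxymethylcytosine (5hmC). These cuts alone separate only unmethylated from modified sites, and the step that tells 5mC from 5hmC is not described here. A share below is the percent of tags of 1 kind. The tables carry no column names. The 3 kinds were taken from the order of the columns and read against the values. Every 5hmC value thus rests on the scarcer of the modified kinds being 5hmC.

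Glutamate receptors open a cation channel or act through G proteins when glutamate binds, and GABA-A receptors open a chloride channel when GABA binds. In neurons of the brain these genes are transcribed from starts that often lie in CpG islands, and many of them have very long introns. In most human cells the body of a gene is methylated and a CpG-rich start is not. In many cancers and cultured cell lines, long stretches of the genome that hold few active genes lose methylation over megabases, while some CpG-rich starts gain it.

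Total tags were 5146348 and 5977422 in the HepG2 libraries of 1000 cells and 4911898 and 6644517 in the H1ES libraries of 1000 cells. Single cells held between 526207 and 2455908 tags in HepG2 and between 757767 and 1543724 in H1ES. HepG2 cells 3 and 5 were far deeper than the other HepG2 cells. The line labels were read against known genes through the unmethylated share at the gene start, since no RNA was measured. Of 8 pluripotency genes, 7 had a lower share in HepG2 than in H1ES, with medians of 14.6% in HepG2 and 87.5% in H1ES. POU5F1 had 5.00% in HepG2 and 83.3% in H1ES, and DNMT3B, the exception, had 2.17% in HepG2 and 0% in H1ES. Of 10 hepatocyte genes, 7 had at least 5 tags per line, and 5 of these were higher in HepG2. HNF4A had 93.1% in HepG2 and 1.61% in H1ES. APOB did not differ in that way, with 91.4% in HepG2 and 92.6% in H1ES, and TTR had 0% in both lines. ALB, AFP and FGB had no tag at the start. Among 5 neuronal genes, SNAP25 alone had at least 5 tags in both lines, with 34.7% in HepG2 and 100% in H1ES. For POU5F1, APOB, TTR and SNAP25 the gene end with more CCGG sites stood in for the start, which is not an annotated start.

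Promoter sequences show what the assay can read at these starts. They are shown for 4 genes whose start values are described below, from 250 bases before to 50 bases after the start as RefSeq places it on GRCh38.p14, 5′ to 3′ on the strand of the gene, with each CCGG site in capitals. GRIA4 (chr11:105610456-105610755, plus strand) and GRM5 (chr11:89065933-89066232, minus strand) encode glutamate receptor subunits. GABRA2 (chr4:46390251-46390550, minus strand) and GABRR1 (chr6:89217728-89218027, minus strand) encode GABA-A receptor subunits.
GRIA4: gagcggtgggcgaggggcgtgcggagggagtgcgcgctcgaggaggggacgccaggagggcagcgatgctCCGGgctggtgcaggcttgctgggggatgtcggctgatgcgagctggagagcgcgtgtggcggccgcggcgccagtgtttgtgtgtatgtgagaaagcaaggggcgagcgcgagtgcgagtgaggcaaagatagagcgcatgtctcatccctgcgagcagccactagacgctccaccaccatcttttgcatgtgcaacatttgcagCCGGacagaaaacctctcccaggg
GRM5: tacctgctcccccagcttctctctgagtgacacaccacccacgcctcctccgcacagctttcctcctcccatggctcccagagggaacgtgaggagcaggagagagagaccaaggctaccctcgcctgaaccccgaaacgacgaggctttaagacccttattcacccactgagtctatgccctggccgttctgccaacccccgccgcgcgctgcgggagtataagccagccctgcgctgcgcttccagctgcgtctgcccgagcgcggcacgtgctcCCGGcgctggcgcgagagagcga
GABRA2: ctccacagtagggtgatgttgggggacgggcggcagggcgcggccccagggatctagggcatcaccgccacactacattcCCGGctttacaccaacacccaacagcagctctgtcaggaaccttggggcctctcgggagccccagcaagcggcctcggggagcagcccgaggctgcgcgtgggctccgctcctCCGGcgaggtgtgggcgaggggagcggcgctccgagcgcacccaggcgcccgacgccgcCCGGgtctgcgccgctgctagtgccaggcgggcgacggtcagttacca
GABRR1: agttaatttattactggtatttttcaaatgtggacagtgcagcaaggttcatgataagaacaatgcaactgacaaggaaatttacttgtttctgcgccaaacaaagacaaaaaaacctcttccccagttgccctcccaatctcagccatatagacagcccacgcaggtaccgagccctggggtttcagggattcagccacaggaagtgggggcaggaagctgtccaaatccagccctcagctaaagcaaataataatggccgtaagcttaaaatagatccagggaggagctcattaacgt
The window of GRIA4 holds 2 CCGG sites and 26 CpG, that of GRM5 1 site and 25 CpG, and that of GABRA2 3 sites and 30 CpG. The window of GABRR1 holds 5 CpG and no CCGG site, so its start was read from sites outside the letters shown. A promoter entry was at hand for 29 of the 35 genes. Of these, 20 windows held a CCGG site (69.0%), against 76.1% of all 15101 autosomal promoters in the same table. The median was 13 CpG per window in the 29 genes and 22 over all promoters. GRIK4 had the most with 49 CpG and 8 CCGG sites, and GABRA6 the fewest with 3 CpG and no site. The other 6 genes (GRIN1, GRIN2C, GRID1, GRIK1, GABRA5 and GABRD) had no entry, and for them the end of the gene richer in CCGG sites stands in for the start. GRIN1 is known to be transcribed from the plus strand, and the end taken for it, at the higher coordinate, is then its 3′ end.

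Across the gene bodies, 5mC was far lower in HepG2 than in H1ES. The body is the gene span without the outer 1000 bp and without 1000 bp on each side of the start. With the tags of all 35 bodies pooled, 5mC made up 33.6% and 34.0% of tags in HepG2, against 94.98% and 95.5% in H1ES. The groups lay 61.4 points apart with a spread between libraries of 0.364 points. The exact permutation test gave p = 0.3333, which is the smallest value that 4 libraries allow. Over all protein-coding gene bodies the same shares were 73.2% ± 0.565 in HepG2 and 95.4% ± 0.300 in H1ES (SD, n = 2 each). The receptor genes and all genes thus lay close together in H1ES and far apart in HepG2.

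All 32 receptor genes with at least 20 body tags in every library were lower in HepG2 and 0 were higher, in edgeR's quasi-likelihood test with Benjamini-Hochberg adjustment over 13199 genes at 0.05. GABRA4, GABRA6 and GABRG1 had too few tags for the test. Over all tested genes, 55.9% were lower and 2.56% were higher. Among genes of at least 100 kb, 69.5% were lower and 2.53% were higher, and all 20 receptor genes of that length were lower. Both HepG2 values lay below both H1ES values in all 32 receptor genes, against 67.2% of all gene bodies and 76.9% of those of at least 100 kb. The median difference was -5.46 in log2 odds over the 32 genes and -2.06 over all tested genes. Against the odds of the whole library, which differed by -2.96 in log2 odds between HepG2 and H1ES, 29 of the 32 were still lower and 1, GRIN2D, was higher. On that scale 24.7% of all genes were lower and 34.5% higher. Of genes of at least 100 kb, 41.3% were lower and 42.8% higher on it, and the 20 receptor genes of that length were all lower. On the plain scale, the 32 genes split in HepG2 between 16.6% and 69.0% 5mC around a median of 34.8%, while the median over 13382 gene bodies was 88.1%. In H1ES the medians were 96.5% in the receptor genes and 97.3% over all bodies, and 28 of the 32 had at least 90% 5mC in both H1ES libraries, against 85.6% of all genes. A body under 50% 5mC in both HepG2 libraries was seen in 24 of the 32 genes, against 18.3% of all genes and 30.5% of genes of at least 100 kb.

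**Figure D1:**
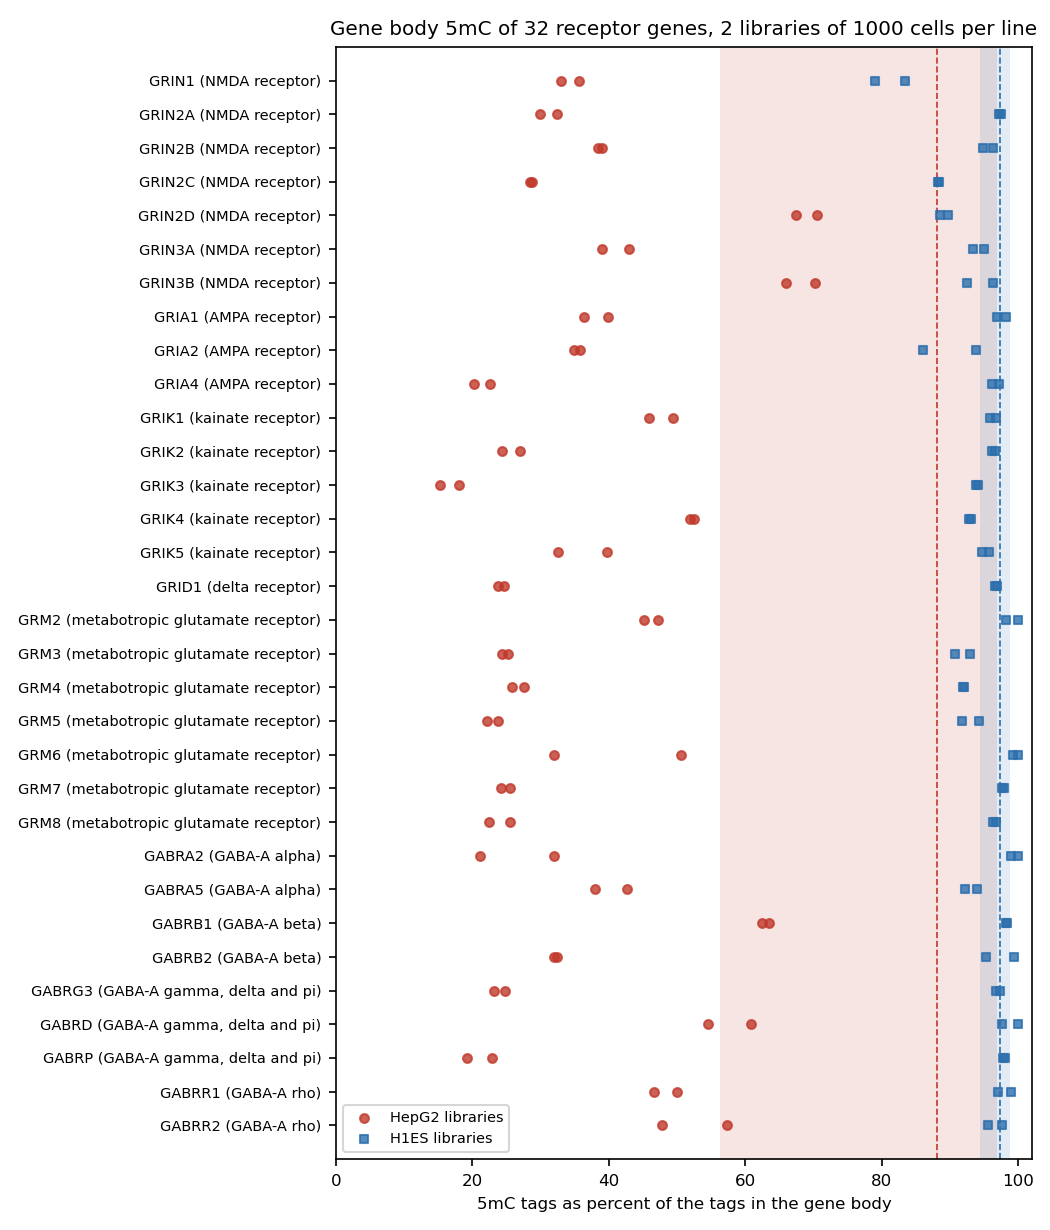
Gene body 5mC as the percent of body tags (horizontal axis) for the 32 testable receptor genes (rows), with 1 point per library of 1000 cells, HepG2 as circles and H1ES as squares. Shaded bands run from the first to the last quartile of 13382 gene bodies in each line and dashed lines mark their medians of 88.1% in HepG2 and 97.3% in H1ES; 27 of the 32 genes lie left of the HepG2 band in both libraries.

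NMDA receptors need the glycine-binding subunit of GRIN1 and take their kinetics from the glutamate-binding GRIN2 subunits. GRIN2A, the subunit that gains weight in the maturing brain, had a body 5mC of 32.3% and 30.0% in HepG2 and 97.2% and 97.4% in H1ES, a difference of -6.30 in log2 odds (SE 0.161). It showed the largest fall in points of the 7 NMDA receptor genes. GRIN2D, a subunit of embryonic brain and interneurons, had 70.5% and 67.4% in HepG2 and 88.6% and 89.7% in H1ES, and fell least (log2 odds -1.87, SE 0.267, adjusted p = 8.68e-12). Relative to its library GRIN2D was higher in HepG2 by 1.09 in log2 odds (adjusted p = 0.00048). Between these lay GRIN1 with a mean of 34.3% in HepG2 and 81.2% in H1ES, GRIN2B with 38.7% and 95.6%, GRIN2C with 28.6% and 88.3%, GRIN3A with 41.0% and 94.2%, and GRIN3B with 68.0% and 94.5%, HepG2 given first in each pair. GRIN1 and GRIN3B did not pass the test relative to the library (adjusted p = 0.866 and 0.953).

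AMPA receptors carry most fast excitation. GRIA4 had 20.3% and 22.5% 5mC in HepG2 and 97.2% and 96.2% in H1ES (log2 odds -6.73, SE 0.282). GRIA2, whose subunit sets the calcium permeability of the channel, had 34.9% and 35.8% in HepG2 and 86.1% and 93.8% in H1ES (log2 odds -3.99, SE 0.378). GRIA1 stood at a mean of 38.1% in HepG2 and 97.5% in H1ES.

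Kainate receptors form channels from GRIK1 to GRIK3 subunits, with GRIK4 and GRIK5 as high-affinity partners. GRIK3 had the lowest 5mC of the 32 genes in HepG2, with 15.2% and 18.03%, against 94.0% and 93.8% in H1ES (log2 odds -6.29, SE 0.166). GRIK4 kept more, with 52.4% and 51.9% in HepG2 and 92.8% and 93.1% in H1ES (log2 odds -3.59, SE 0.115), and the difference from GRIK3 within HepG2 was far larger than the spread between libraries. GRIK4 also had 2942 pooled body tags in HepG2 and 3396 in H1ES, among the deepest of the set. GRIK1 averaged 47.6% in HepG2 and 96.2% in H1ES, GRIK2 25.7% in HepG2 and 96.4% in H1ES, and GRIK5 36.1% in HepG2 and 95.2% in H1ES. GRID1, a delta receptor subunit that acts as a synaptic organiser, had 23.7% and 24.6% in HepG2 and 96.6% and 96.8% in H1ES.

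All 7 metabotropic receptor genes were lower in HepG2. GRM7, a presynaptic autoreceptor, had 24.2% and 25.6% 5mC in HepG2 and 97.9% and 97.6% in H1ES, the largest fall of the 7. GRM2, also an inhibitory autoreceptor, had 45.2% and 47.2% in HepG2 and 100% and 98.2% in H1ES, the smallest fall. The postsynaptic receptor GRM5 averaged 22.9% in HepG2 and 93.0% in H1ES. GRM3 averaged 24.7% in HepG2 and 91.9% in H1ES, GRM4 26.6% in HepG2 and 92.0% in H1ES, and GRM8 24.0% in HepG2 and 96.6% in H1ES. GRM6, the receptor of retinal ON bipolar cells, was uneven between the HepG2 libraries, with 31.96% and 50.6% in HepG2 and 99.2% and 100% in H1ES.

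Among GABA-A receptor genes the alpha gene GABRA2 fell most of its class, with 31.9% and 21.2% 5mC in HepG2 and 98.9% and 100% in H1ES (log2 odds -8.53, SE 0.712). GABRA5, whose subunit is common in hippocampus, had 42.7% and 38.0% in HepG2 and 93.9% and 92.2% in H1ES. The beta subunits are required in most of these channels. GABRB2 had 32.4% and 32% in HepG2 and 99.4% and 95.3% in H1ES, whereas GABRB1 had 63.5% and 62.5% in HepG2 and 98.3% and 98.3% in H1ES. Within HepG2 the beta genes thus differed far beyond the spread between libraries, which was 0.269 points (SD) for GABRB2 and 0.684 points for GABRB1.

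GABRP, the pi subunit found in epithelia as well, had 22.9% and 19.2% 5mC in HepG2 and 98.1% and 97.8% in H1ES, from 61 pooled tags in HepG2 and 98 in H1ES. GABRD, the extrasynaptic delta subunit, had 54.5% and 60.9% in HepG2 and 97.6% and 100% in H1ES. GABRG3 averaged 24.0% in HepG2 and 97.0% in H1ES. The rho subunits are best known from retina. GABRR1 had 46.6% and 50% in HepG2 and 97.0% and 98.9% in H1ES, and GABRR2 had 47.8% and 57.3% in HepG2 and 97.6% and 95.5% in H1ES. The 3 genes left out of the test, all on chromosome 4 or 5, rest on few tags. GABRA4 had 31 methylated of 42 tags in HepG2 and 48 of 51 in H1ES, GABRA6 had 3 of 13 in HepG2 and 23 of 23 in H1ES, and GABRG1 had 8 of 34 in HepG2 and 56 of 57 in H1ES.

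The classes can be set in order by their pooled HepG2 body 5mC. GRID1 alone made up the delta class at 24.1%, followed by the metabotropic genes at 26.0%, the gamma, delta and pi genes at 27.7%, the AMPA genes at 32.3%, the NMDA genes at 37.4%, the alpha genes at 40.02%, the kainate genes at 40.1%, the rho genes at 50.7% and the beta genes at 55.0%. The alpha libraries, at 43.5% and 36.6%, overlapped those of both neighbouring classes. The rho libraries, at 47.3% and 54.0%, came within 1 SD of the beta ones, at 55.8% and 54.1%. Long genes give most tags to a pooled value, and GRIK4 sets much of the kainate one. In H1ES the same classes lay between 93.5% and 98.0%.

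The lower 5mC was spread over most sites of these bodies. With at least 5 pooled tags, 48.4% of 2227 sites in HepG2 were under 20% 5mC, 36.5% were between 20% and 80%, and 15.1% were over 80%. Over all gene bodies in HepG2, 16.95% of sites were under 20%, 21.9% were between, and 61.1% were over 80%. In H1ES, 1.28% of the 2419 sites in the receptor genes were under 20% and 92.9% were over 80%. In a library of 1000 cells, a share between 0 and 100% can come from cells that differ or from alleles that differ within a cell, and these cannot be told apart there.

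The bodies also stood apart from the DNA around them. Flanks were taken as 100 kb on each side, beyond 2000 bp from the gene. Other genes were not taken out of the flanks. GABRA5 and GABRG3 thus lie partly in each other's flanks, as do GABRA4 and GABRB1. Such neighbours were still counted as separate genes. In both HepG2 libraries, 26 of the 32 bodies had less 5mC than their flanks, against 26.4% of all gene bodies and 31.0% of those of at least 100 kb. In both H1ES libraries this held for 10 of the 32, against 20.1% of all gene bodies. Pooled over the genes, the flanks had 59.0% ± 1.28 5mC in HepG2 and 92.3% ± 0.377 in H1ES (SD, n = 2 each). GRIN2C was 40.7 points under its flanks in HepG2, with a body of 28.4% and 28.8% beside flanks of 68.4% and 70.2%. GRIA4 had flanks of 60.2% and 61.2% in HepG2, with the body 39.3 points under them. GRID1 had flanks of 63.1% and 63.1% in HepG2, with the body 38.9 points under them. GRIK3 had low flanks too, with 20.5% and 27.9% in HepG2. The 6 bodies that were not under their flanks in both HepG2 libraries were GRIN2B, GRIN2D, GRIA1, GABRA2, GABRA5 and GABRB1. GRIN2B had flanks of 26.3% and 30.0% in HepG2, below its body of 38.9% and 38.4%. The genes singled out in this comparison were chosen after their values were seen.

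**Figure D2:**
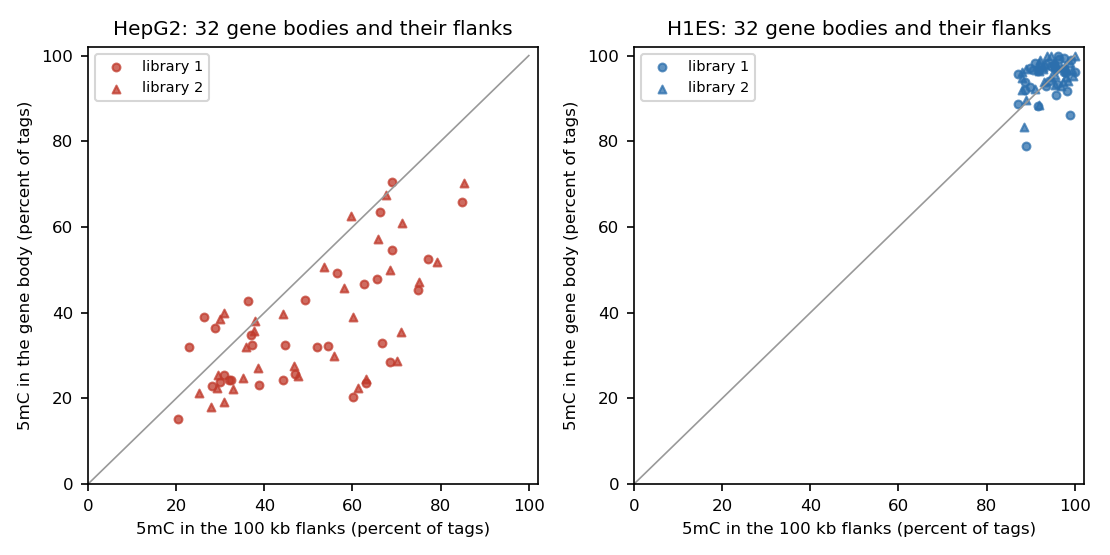
Body 5mC (vertical axis, percent of tags) against 5mC in the 100 kb flanks (horizontal axis, percent of tags) for the 32 receptor genes in HepG2 (left) and H1ES (right), with 1 point per gene and library. In HepG2, 26 genes lie under the diagonal in both libraries and the points spread widely, whereas all H1ES points sit in the upper right corner.

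Within a gene, 5mC in HepG2 was not even. Each gene span without its outer 1000 bp was split into 10 segments of equal length, and 17 genes had at least 8 segments with 20 or more tags in each line. The start window was not taken out here. Where the start lies inside the span, as in segment 1 of GABRB1, a segment can hold start sites and DNA before the start. Their lowest and highest HepG2 segments were 14.6 to 62.3 points apart, with a median of 31.6, and 3 of 167 segments were over 80%. GRIN2A was the most even of the 17, with its HepG2 segments between 23.6% and 38.1%. GRIA4 ranged from 5.13% in segment 6 to 67.4% in segment 8, and GRIK2 from 8% in segment 9 to 69.6% in segment 2. GRIN2B carried more 5mC toward its end, with segments 1 to 5 together at 27.8% and 26.1% in the HepG2 libraries and segments 6 to 10 at 48.4% and 48.7%. In H1ES the same parts of GRIN2B had 93.4% and 91.3%, and 99.2% and 98.5%. GABRA5 ran the other way in HepG2, with 55.2% and 54.7% in segments 1 to 5 and 20.3% and 15.6% in segments 6 to 10, but its start is not from a promoter entry.

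GRIN3B showed the sharpest step. Segments 1 to 5 had 9.38% and 10.53% 5mC in HepG2 and 84.2% and 89.5% in H1ES. Segments 6 to 10 had 98.2% and 100% in HepG2 and 98.2% and 100% in H1ES. The step rests on 32 and 19 HepG2 tags in segments 1 to 5 and on 56 and 38 in segments 6 to 10, and the GRIN3B body value in HepG2 is a mixture of these parts. The genes named for their profiles were chosen after their values were seen.

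**Figure D3:**
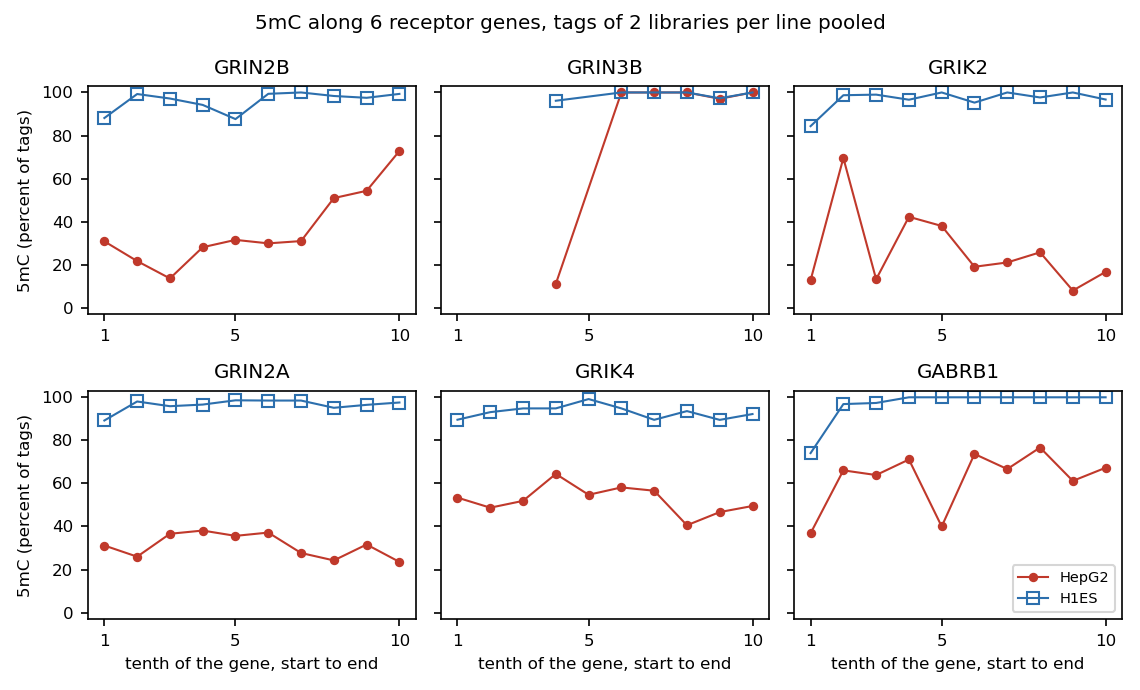
5mC (vertical axis, percent of tags, both libraries of a line pooled) in 10 equal segments from start to end (horizontal axis) of 6 receptor genes, HepG2 as filled circles and H1ES as open squares, for segments with at least 10 tags in each line. GRIN2B rises toward its end in HepG2, GRIN3B steps from 11.1% to 100%, GRIK2 is uneven and GRIN2A is even. GRIK4 and GABRB1 stay at 36.8% or more throughout, while H1ES stays high in all 6. Segment 1 of GABRB1, its lowest in HepG2, holds its start.

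The starts behaved unlike the bodies. Within 1000 bp on each side of the start, the pooled receptor genes had an unmethylated share of 55.9% and 66.5% in HepG2 and 70.0% and 69.3% in H1ES, and the difference of -8.43 points compares with a spread between libraries of 5.33 points (exact permutation p = 0.3333). Over all genes the starts had 67.2% ± 0.927 in HepG2 and 52.8% ± 1.17 in H1ES (SD, n = 2 each), which is the opposite order. Between 1000 and 2000 bp upstream, the receptor genes had 62.8% and 55.1% unmethylated tags in HepG2 and 28.7% and 26.2% in H1ES, so the order of the lines there was the reverse of that at the start. Depth was low at the starts, with 331 and 239 tags in HepG2 and 406 and 251 tags in H1ES over all 35 genes. The pools at the start and upstream include the 6 genes with no promoter entry. One of these is GRIN1, whose window lies at its 3′ end. It gave 33 of the HepG2 start tags and 47 of the H1ES ones.

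Only 7 of the 35 genes had at least 10 start tags in every library, 5 of them with a promoter entry, and edgeR called 2 lower and 1 higher in HepG2. Over 4707 tested genes, 5.69% were lower and 32.2% were higher. Relative to the odds of the whole library the same 3 genes were called, against 9.41% of all genes lower and 20.8% higher. GABRR1 was higher, with 5 unmethylated of 13 tags and 10 of 18 in HepG2 and 0 of 24 and 0 of 20 in H1ES (adjusted p = 9.24e-06). A count of 0 in 44 H1ES tags allows a share of up to 6.82%. GABRG3 was lower, with 13.6% and 13.3% in HepG2 and 54.5% and 70.6% in H1ES (log2 odds -3.16, SE 0.782, adjusted p = 0.000306). GRIN2B was lower, with 7 unmethylated of 14 tags and 4 of 10 in HepG2 and 14 of 14 and 17 of 19 in H1ES (log2 odds -4.04, SE 1.15, adjusted p = 0.00197). GABRG3 and GRIN2B lost their call when any 1 library was left out (adjusted p from 0.0508 to 0.101), and GABRR1 lost it without either H1ES library (adjusted p = 0.0749 each).

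No call was made for GRM8, with 82.4% and 90.9% in HepG2 and 95.2% and 94.7% in H1ES (adjusted p = 0.405). The window taken for GRIN1, which lies at its 3′ end and does not describe its start, had 78.3% and 80% in HepG2 and 76.7% and 76.5% in H1ES (adjusted p = 0.907). GRIA2 had 28.6% and 69.2% in HepG2 and 39.1% and 50% in H1ES (adjusted p = 0.994), so its HepG2 libraries enclosed the H1ES ones. GRID1 was not called either (adjusted p = 0.968). With the window drawn from 2000 bp upstream to 1000 bp downstream, 15 genes could be tested, and 4 were higher and 1 lower, against 35.7% of all genes higher and 4.26% lower in that window.

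Read site by site, the starts show both losses and gains that a window averages out. Of 455 start sites, 48 in 28 genes had at least 5 pooled tags per line. At 7 of these, in 7 genes, the unmethylated share was at least 50 points lower in HepG2, and at 4, in 3 genes, at least 50 points higher. The sites were read as values with no test, and those of GRIN1 lie at its 3′ end. Of the 32 sites that were at least 80% unmethylated in H1ES, 7 were lower by 50 points or more, against 7.74% of such sites over all genes, and 14 were still at least 80% unmethylated in HepG2, against 81.4% over all genes. Of the 9 sites at most 20% unmethylated in H1ES, 4 were higher by 50 points or more, against 44.6% over all genes. The gains were thus about as frequent as over all genes and do not set the receptor genes apart. With the 29 genes that have a promoter entry alone, 39 sites in 23 genes were left, the same 7 and 4 sites moved by 50 points or more, and 11 of 25 sites at least 80% unmethylated in H1ES were so in HepG2. The sites named below were chosen after their values were seen.

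GRIN2B had a site 792 bases into the gene with 0 unmethylated of 9 tags in HepG2 and 11 of 11 in H1ES. GRM6 had one at 768 bases with 0 of 9 in HepG2 and 10 of 10 in H1ES. The GABRG3 site 320 bases before the start had 2 of 13 in HepG2 and 25 of 26 in H1ES, and the GRIA4 site 655 bases before the start had 1 of 13 in HepG2 and 5 of 5 in H1ES. GRM7 and GABRA2 had such a site inside the gene as well, GRM7 at 403 bases with 2 of 8 in HepG2 and 8 of 8 in H1ES, and GABRA2 at 388 bases with 3 of 9 in HepG2 and 8 of 8 in H1ES. In these 6 genes the H1ES site was unmethylated in all or all but 1 of the tags.

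GRIA2 held changes both ways inside 1 window. At 442 bases before the start, 8 of 9 tags were unmethylated in HepG2 and 0 of 19 in H1ES, while at 482 bases after it 3 of 11 were unmethylated in HepG2 and 12 of 12 in H1ES. Single cells gave 8 of 10 in HepG2 and 0 of 4 in H1ES at the first of these sites, and 2 of 5 in HepG2 and 2 of 3 in H1ES at the other. GABRA6 had a site at 616 bases with 9 of 9 in HepG2 and 0 of 14 in H1ES. GABRR1 had 6 of 9 in HepG2 and 0 of 12 in H1ES at 542 bases, and 9 of 17 in HepG2 and 0 of 21 in H1ES at 333 bases before the start. Of the promoters printed above, GRIA4 was read at its first CCGG, 179 bases before the start, with 8 unmethylated of 12 tags in HepG2 and 4 of 4 in H1ES. GRM5 was read at its only CCGG, 29 bases after the start, with 3 of 5 in HepG2 and 12 of 13 in H1ES. The CpG-rich start of GRIK4 was unmethylated in 13 of 13 tags in HepG2 and 8 of 9 in H1ES.

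**Figure D4:**
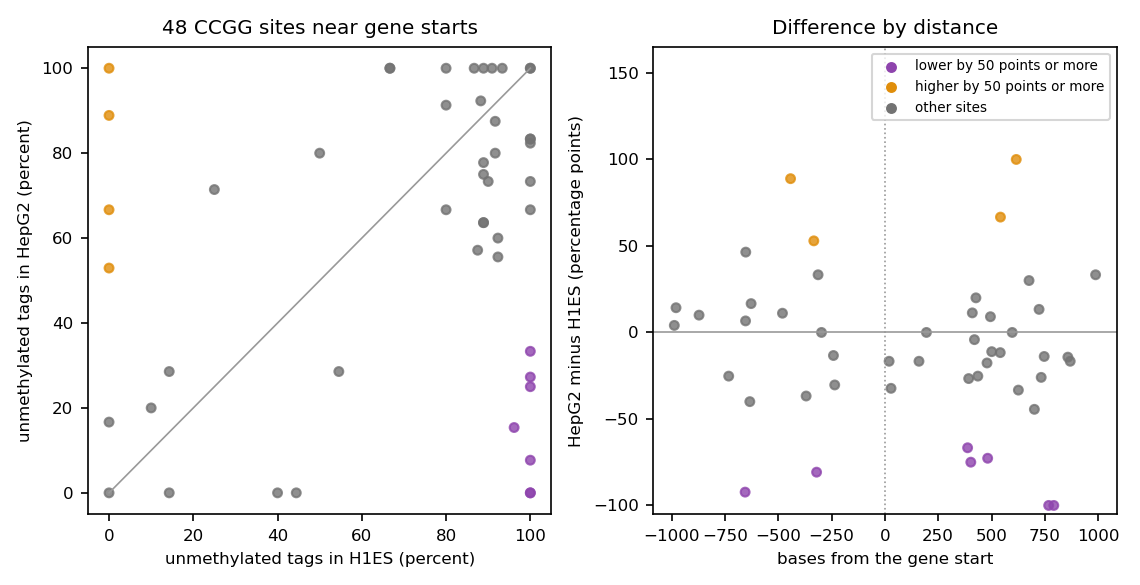
Unmethylated share at the 48 CCGG sites near receptor gene starts with at least 5 pooled tags per line: HepG2 (vertical axis, percent) against H1ES (horizontal axis, percent) on the left, and the HepG2 minus H1ES difference (percentage points) by distance from the start (bases) on the right. The 7 sites lower by 50 points or more come from sites near 100% in H1ES and the 4 higher ones from sites at 0%, on both sides of the start. Sites of GRIN1 among the 48 lie at its 3′ end and not near its start.

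5hmC was scarce in the receptor gene bodies of HepG2. It made up 11 of 13420 and 11 of 11639 tags in the HepG2 libraries and 312 of 16323 and 206 of 12495 in the H1ES libraries, or 0.0882% ± 0.00887 in HepG2 and 1.78% ± 0.186 in H1ES (SD, n = 2 each). Over all gene bodies the shares were 0.308% ± 0.0511 in HepG2 and 1.63% ± 0.126 in H1ES. In edgeR, 16 of 32 receptor genes were lower in HepG2 and 0 were higher, against 17.1% of all genes lower. The share called over all genes rose with depth. It was 2262 of 9478 genes at 50 or more body tags per library and 2439 of 6313 at 100 or more. The part of depth in the receptor gene count was not tested. Relative to the odds of the whole library, which differed by -2.43 in log2 odds, 0 of the 32 were called in either direction (6 had an unadjusted p under 0.05), against 0.0248% of all genes in each direction, and DESeq2 called 6 lower on the plain scale.

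Of genes with at least 200 body tags in each H1ES library, GRIK4 had the most 5hmC in H1ES, with 2 of 1562 and 2 of 1380 tags in HepG2 and 60 of 1979 and 49 of 1417 in H1ES, which is 3.03% and 3.46% in H1ES (log2 odds -4.53, SE 0.516, adjusted p = 2.74e-15). GRM4 had 2 of 1064 and 2 of 828 in HepG2 and 3.08% and 2.90% in H1ES (adjusted p = 3.48e-08). GRIK3 had 0 of 630 and 0 of 549 tags in HepG2 and 2.38% and 2.26% in H1ES (adjusted p = 1.33e-06). The 0 of 1179 pooled tags of GRIK3 allows a share of up to 0.254% in HepG2.

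Single cells gave the same picture gene by gene. Pooled over the receptor gene bodies, 5mC made up 36.7%, 35.8%, 33.8%, 34.3% and 38.4% of tags in HepG2 cells 1 to 5 and 94.6%, 94.6%, 95.8%, 94.8% and 95.1% in H1ES cells 1 to 5. The exact 95% intervals, which cover counting error only, ran from 33.8% to 39.6% for HepG2 cell 1 with 1118 tags and from 32.6% to 35.0% for HepG2 cell 3 with 5852 tags. Of the deep cells, 3 and 5 did not overlap in their intervals, with 37.1% to 39.7% in cell 5. Over all gene bodies, cell 3 had 71.6% and cell 5 had 74.3%. Cells were not tested, since no culture is named for them and a line is then 1 sample. At least 5 body tags in all 10 cells were held by 28 receptor genes, and in all 28 every HepG2 cell lay below every H1ES cell, against 42.7% of all genes with such depth and 57.9% of those of at least 100 kb.

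The genes named here for their single cells were chosen after their values were seen. GRIA1 had the widest HepG2 range of the 28, between 10.53% and 62.2% 5mC in HepG2 cells and between 94.7% and 96.5% in H1ES cells, with 19 and 37 tags in the HepG2 cells at its ends. GRIK3 lay between 12.5% and 22.2% 5mC in HepG2 cells and between 92.4% and 95.9% in H1ES cells. GRIK4 lay between 50.4% and 57.3% in HepG2 cells and between 90.5% and 94.95% in H1ES cells. GABRB1 lay between 56.7% and 78.9% in HepG2 cells and between 95.9% and 100% in H1ES cells, and GRIN2D came closest to its H1ES cells, with up to 86.7% in HepG2 and no less than 89.2% in H1ES. Across 33 genes, body 5mC of the pooled HepG2 cells correlated with that of the HepG2 libraries of 1000 cells at Pearson r = 0.936, and across 34 genes the H1ES values did at r = 0.818. These describe genes of 1 line read at the same sites, and genes are not independent replicates.

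Single cells also hold sites with tags of both kinds. Among body sites with at least 2 tags in a cell, 25.4% to 38.2% in HepG2 cells had unmethylated and modified tags together, and 3.08% to 4.06% in H1ES cells did. Sites with unmethylated tags only made up 40.5% to 50% in HepG2 cells and 0.659% to 1.73% in H1ES cells. Over all gene bodies, the mixed sites were 13.6% to 22.2% in HepG2 cells and 2.14% to 3.004% in H1ES cells. HepG2 cells 3 and 5, which had the most tags, also had the most mixed sites, and the part of depth in this was not tested.

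**Figure D5:**
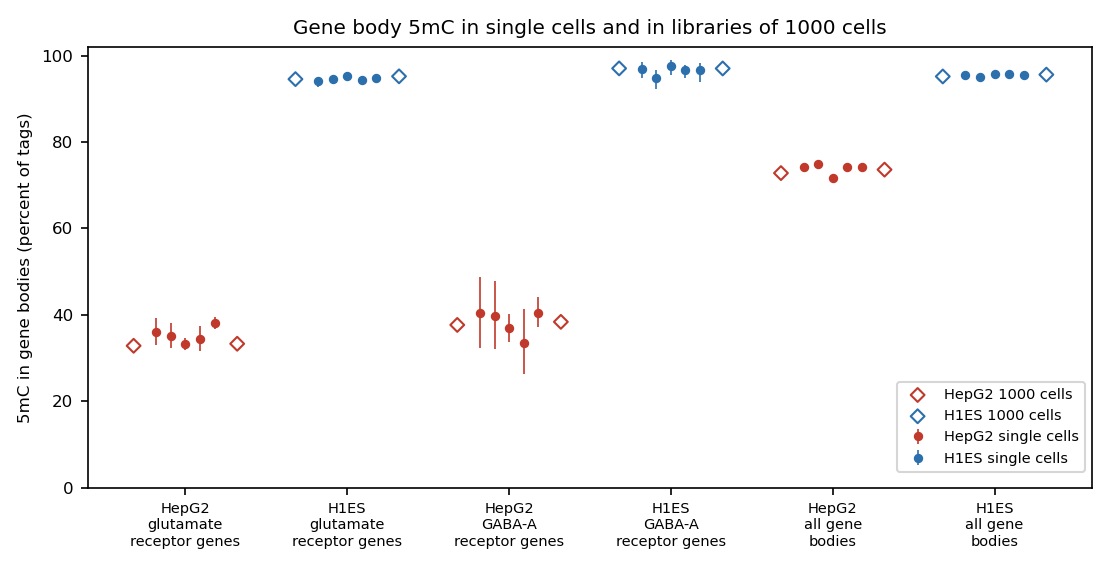
Gene body 5mC (vertical axis, percent of tags) of the glutamate receptor genes, the GABA-A receptor genes and all protein-coding genes in HepG2 and H1ES. Filled points are 5 single cells per line with exact 95% intervals, and open diamonds are the 2 libraries of 1000 cells; in HepG2 cells the receptor genes reach at most 40.5% while all gene bodies lie between 71.6% and 74.9%, and in H1ES no point lies under 94.0%.

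Other genes of these synapses were read in 5 lists. In the GABA-B and glycine receptor genes, 5 of 5 tested were lower in body 5mC in HepG2, with GLRB, the beta subunit of the glycine receptor, at 9.59% and 26.6% in HepG2 and 100% and 98.5% in H1ES. Of other neurotransmitter receptors, 21 of 23 tested were lower and 0 higher, among them the muscarinic receptor gene CHRM3 with 24.1% and 26.8% in HepG2 and 96.7% and 98.0% in H1ES. Of receptor accessory proteins, 17 of 18 were lower, with the AMPA receptor partner CACNG3 at 20.3% and 19.9% in HepG2 and 94.0% and 97.5% in H1ES, and 1 was higher. That gene was NRN1, with 45.2% and 40% in HepG2 and 0 and 8.82% in H1ES (adjusted p = 9.75e-06). It is named here after its value was seen. Of the genes for synthesis, loading and uptake of glutamate and GABA, 13 of 20 were lower and 0 higher, and of postsynaptic scaffold genes 15 of 23 were lower and 2 higher. GAD2, which makes GABA from glutamate, had 26.2% and 27.7% in HepG2 and 95.3% and 96.9% in H1ES, and the scaffold gene GRIP1 21.97% and 24.2% in HepG2 and 96.7% and 96.8% in H1ES. Relative to the odds of each library, 8 genes of synthesis, loading and uptake were lower and 8 higher, 11 scaffold genes were lower and 9 higher, 13 accessory genes were lower and 1 higher, 14 other neurotransmitter receptors were lower and 2 higher, and 4 GABA-B and glycine receptor genes were lower and 0 higher. The counts on the plain scale stand beside the 55.9% of all genes that were lower and the 32 of 32 of the receptor genes. Those relative to each library stand beside 24.7% of all genes lower and 34.5% higher. Among genes of at least 100 kb, 41.3% were lower and 42.8% higher on that scale.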

How the data were processed

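The human samples were 2 libraries of 1000 cells and 5 single cells each of HepG2 and H1ES; 5 mouse libraries were not used here. The tools named in the submitters' processing notes are Bowtie2 2.3.4.1, cutadapt 1.5 and UMI-tools 0.5.4, with build hg38; the role of each is not given in the sources used here. The deposited tables give 3 values per CCGG site in the unit fraction, the shares of unmethylated, 5mC and 5hmC tags, and the deposited count of tags at the site. Fraction times count was whole within 0.00141 at every site, so the product gave back the tags of each kind.

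Sites were joined to RefSeq genes of GRCh38.p14. The start came from the promoter table for 15101 of 19126 genes (29 of the 35 receptor genes) and otherwise from the end of the gene richer in CCGG sites, which is not an annotated start. Bodies needed at least 20 tags and starts at least 10 in every library. Tags of 1 kind were tested against the other tags with edgeR 4.0.16 in R 4.3.3 (quasi-likelihood, 1 term per library, Benjamini-Hochberg over all genes, threshold 0.05), and the effect is a log2 odds. Alternatives used DESeq2 1.42.0, limma 3.58.1 on logit shares (pseudocount 0.5), other minimums and windows, odds relative to each library, a replicate block and each library left out. The labels do not say that libraries of a line came from separate cultures, so p-values measure only how these libraries vary, and that variation may be technical. Tags per gene body of the HepG2 pair agreed within sampling noise (chi-square per degree of freedom 1.03, and 2.51 in H1ES), but the shares of the 3 kinds differed between the pair (882 per degree of freedom), so both were counted as libraries. On simulated data for the body 5mC comparison (13199 genes), 24% of 2-fold and 51% of 4-fold changes in odds were recovered, for starts (4707 genes) 0% and 9%, and for 5hmC (12094 genes) 0% and 6%. Pooled shares used exact two-sided permutation tests, and intervals are exact Clopper-Pearson at 95% (Python 3.11.15, SciPy 1.17.1); the limit of a count of 0 is 3 tags. Both cover counting error only. Figures were drawn with matplotlib 3.10.9.

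The genes and lists were chosen with earlier results of these data known. Genes with values in every library were named by rule: the largest and smallest fall of body 5mC in each class, the 6 largest start differences, the 3 with the most 5hmC in H1ES among those with at least 200 body tags in each H1ES library, and up to 2 called genes per other list. Names outside it are said to be chosen after their values were seen.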

Additional observations from a re-analysis of the deposited data

Results flagged for a closer look

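Single cells of a line form the groups of 5 in these data, and a cell was picked out when its gap to the nearest other cell was a large part of the range of its group. Of 53 such groups of pooled shares, 4 held a picked cell. Chance gives about 1 in 20 for values that vary smoothly, which these do not. All 4 are 5hmC shares in which the other 4 cells had no 5hmC tag at all, and such a group is always picked. At the starts of all receptor genes, HepG2 cell 5 had 0.746% of 134 tags as 5hmC and the other HepG2 cells had 0. The same cell had 1.01% of 99 tags at the glutamate receptor starts, which is the same tag counted again. H1ES cell 1 had 2.50% of 40 tags at the glutamate receptor starts, and the other H1ES cells had 0. HepG2 cell 3 had 0.114% of 879 tags in the GABA-A receptor bodies, and the other HepG2 cells had 0. Each value rests on 1 tag.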

How the results depend on the processing

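The lower body 5mC in HepG2 was called for every tested receptor gene under all alternatives except odds relative to each library, where 1 gene was called higher and GRIN1 lost its call; there GRIN2D turned to 1.09 (adjusted p = 0.00048) and GRIN3B to 0.0911 in log2 odds. Left-out libraries gave 32 calls each. With equal weight per gene the pooled difference was -58.1 points, and without 1 library it ran from -61.7 to -61.2. At the starts, lower calls numbered 0 without any 1 library, higher calls 0 to 1, lower calls 1 with sites tagged in all 4 libraries, and calls were 0 within 500 bp of the start. The window of 2000 bp upstream gave 1 lower and 4 higher of 15 receptor genes, and 324 lower and 2719 higher of all 7606. At 20 tags no receptor gene start was left to test. Over all genes, leaving out either H1ES library left 0 start calls in edgeR (1505 and 1855 genes had an unadjusted p under 0.05). Genes without a start call changed sign. Relative to each library GRIA2 had -0.90, GRIN1 -0.74 and GRID1 -0.85. GRID1 had -0.43 against 1 other kind, -0.00079 with sites tagged in all libraries, and -0.82 to 1.20 without 1 library, and GRIA2 had -0.97 to 1.48 without 1 library. For 5hmC, lower calls numbered 6 with DESeq2, 0 relative to each library, 4 against 1 other kind and 7 to 11 without 1 library. Over all genes, 2066 bodies were lower in 5hmC, against 232 with DESeq2, 3 relative to each library, 1051 against 1 other kind and 787 without H1ES replicate 1. The replicate block gave 10 for 5hmC (1015 over all genes) and changed no other call; same-numbered libraries did not deviate together (correlation 0.0131 over gene bodies). The HepG2 single cell share was 34.5% to 37.3% without 1 cell (37.3% without cell 3, 34.5% without cell 5), and the H1ES one 94.7% to 95.01%. At 10 pooled tags per line, an alternative chosen after seeing the data, 9 start sites were left, 2 lower and 1 higher. Genes with a promoter entry alone, also chosen then, kept the 2 lower and 1 higher start calls. Flanks of 50000 or 200000 bp, also chosen then, gave 28 and 25 bodies under their flanks. Depth limits the starts most, with 28 of 35 genes untested. The causes were not tested.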
